A study of Mus musculus with 9 samples.

Results

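Knockout myoblasts treated with oxybutynin were compared with floxed myoblasts that received only the vehicle, over every expressed gene. The comparison used 6 of the 9 libraries of the study, and 15720 of the 55536 gene IDs had enough counts to be tested. The cells were myoblasts, muscle precursors that divide before they fuse into fibres, taken as primary cells from mice with floxed Uqcrfs1 alleles. In floxed vehicle (3 libraries; genotype given as uqcrfs1 +/+, floxed) the cells had received an adenovirus for green fluorescent protein (GFP) and the solvent DMSO. In knockout oxybutynin (3 libraries; uqcrfs1 -/-) the cells had received an adenovirus for Cre recombinase and 7.5 µM oxybutynin. In knockout vehicle (3 libraries; uqcrfs1 -/-), used here to place the treated values and included in every fit for its filter and spread, the cells had received Cre and DMSO. All cells were seeded 72 h after the virus, treated 24 h after seeding and cultured for 5 days in growth medium with horse serum. Every group therefore started from floxed alleles and received an adenovirus, and each genotype came with its own virus. No floxed cells with oxybutynin are in the design, so knockout, Cre and oxybutynin cannot be told apart in this comparison. The labels do not say whether the 3 libraries of a group came from separate cultures or animals, so p-values measure only how far these libraries differ, and part of that may be technical. In these bulk samples fewer cells of a type and less RNA per cell cannot be told apart.

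Uqcrfs1 encodes the Rieske iron-sulphur protein of complex III, the enzyme of the mitochondrial inner membrane that takes electrons from ubiquinol and passes them to cytochrome c. Without it ubiquinol cannot be reoxidised by this route, and complex I, the tricarboxylic acid cycle and dihydroorotate dehydrogenase all depend on oxidised ubiquinone. Cells with a failing respiratory chain are known to lean on glycolysis and to raise genes of the integrated stress response, which is driven by the transcription factor ATF4. Oxybutynin is an antagonist of muscarinic acetylcholine receptors used against overactive bladder.

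Library totals ran from 19604971 to 26226949 counts. Levels are counts-per-million (CPM) of the library total scaled by edgeR's TMM factors, and fold changes are given on the log2 scale with their standard error (SE). A gene was called at an adjusted p under 0.05 in edgeR's quasi-likelihood test, fitted to all 9 libraries and adjusted over all genes tested. Transcript GC content and length moved with the comparison, as described further on, so most gene lists are also given after a smooth trend on both was removed from every library. Desmin, Myod1, Pax7 and Cdh15, which mark myoblasts, were present in every library of all 3 groups. On the first principal component of the libraries, knockout vehicle replicate 2 lay nearer the floxed libraries than the other 2 of its group.

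The targeted gene, Uqcrfs1, was at 78.6, 76.5 and 83.6 CPM in the 3 floxed vehicle libraries and at 2.898, 2.71 and 2.07 CPM in the 3 knockout oxybutynin libraries. It was at 2.38, 2.13 and 2.83 CPM in knockout vehicle. All 6 Cre libraries thus sat far below the floxed ones, and Uqcrfs1 fell by 4.95 ± 0.13 (SE) on the log2 scale (adjusted p = 6.74e-14, edgeR). Treated and untreated knockout libraries overlapped for this gene, with a difference of 0.07 (95% interval -0.28 to 0.41).

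Of the 15720 genes, 11303 were called, which is 71.9%. Among them 5510 (35.1%) were higher and 5793 (36.9%) lower in knockout oxybutynin than in floxed vehicle, and these shares are the background for every count below. Calls with at least a 2-fold difference numbered 4847 (30.8%), of which 1696 were higher and 3151 lower. The ranges of the 3 and 3 libraries did not overlap for 12407 genes (78.9%). The median absolute log2 fold change was 0.647, with a median SE of 0.126. With the GC and length trend removed, 9740 of 15714 genes (62%) were called, 4682 higher (29.8%) and 5058 lower (32.2%). The fits shared 7743 called genes, 928 of them with opposite signs.

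**Figure D1:**
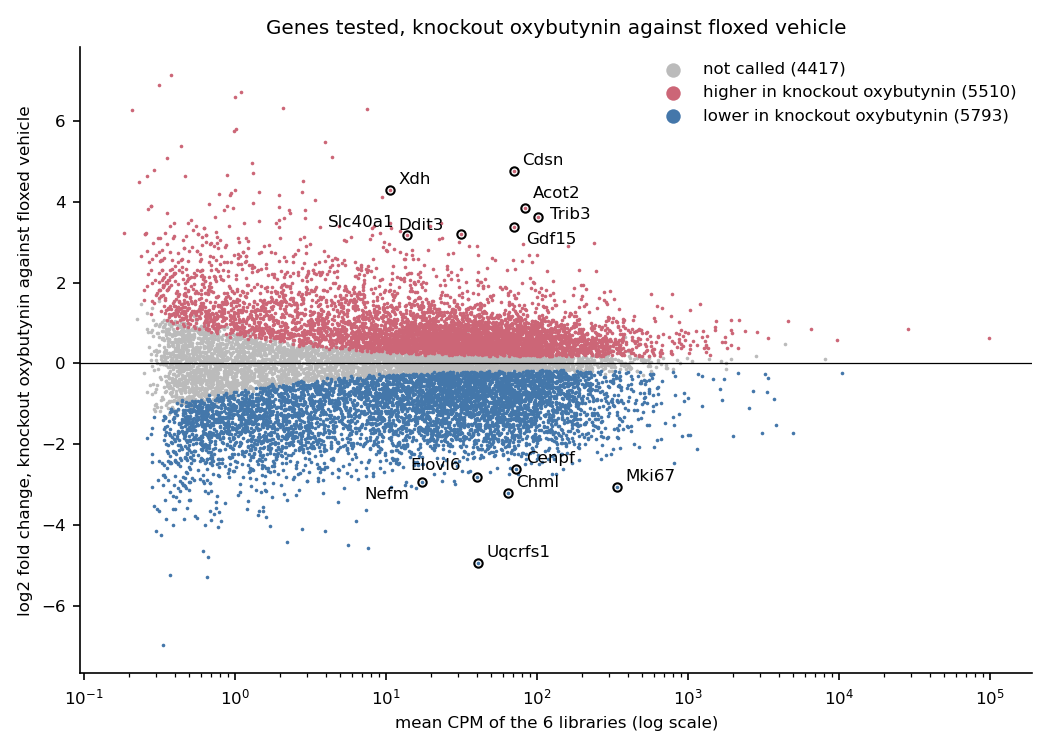
Each point is one of the 15720 genes, with the mean level of the 6 libraries in CPM on a log axis and the log2 fold change of knockout oxybutynin against floxed vehicle on the other axis. Called genes are coloured (5510 higher, 5793 lower), and Uqcrfs1, the lowest of the circled genes, lies at -4.95.

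Where genes were called, averaged 10 CPM or more and had groups that did not overlap, the 12 largest rises ran from 3.17 to 4.75. The largest was Cdsn, corneodesmosin, an adhesion protein known from the outer epidermis. Its level was 5.01, 4.81 and 5.34 CPM in floxed vehicle and 152, 124 and 133 CPM in knockout oxybutynin. Xdh, xanthine dehydrogenase, which makes uric acid, went from 1.02, 0.988 and 1.11 CPM to 21.6, 19.6 and 19.8 CPM, a rise of 4.28 ± 0.14. Acot2, a mitochondrial thioesterase that frees fatty acids from coenzyme A, went from 11.9, 9.62 and 11.1 CPM to 152, 149 and 166 CPM. The naming rule took only genes whose groups do not overlap, so the gap in these 3 is part of how they were chosen. The others were Trib3 (3.63), a pseudokinase of the stress response, the secreted protease Mmp19 (3.47), aminopeptidase N (Anpep, 3.47) and the cationic amino acid transporter Slc7a3 (3.40). They also held the stress cytokine Gdf15 (3.37), the calcium pump Atp2a3 (3.36), the secreted glycoprotein Lgals3bp (3.28), the transcription factor Ddit3 (3.20) and the iron exporter Slc40a1 (3.17). With the trend removed the 12 lay between 2.65 and 4.33.

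The 12 largest falls ran from -4.95 for Uqcrfs1 to -2.80 for Elovl6, an elongase of long-chain fatty acids. Chml, an escort protein that presents Rab proteins for prenylation, was at 112, 112 and 123 CPM in floxed vehicle and at 11.1, 12.2 and 14.4 CPM in knockout oxybutynin. Mki67, the proliferation marker Ki-67, went from 603, 564 and 649 CPM to 71.5, 66.6 and 80.6 CPM. Others among them were the ciliary gene Cep290 (-3.09), the dynein adaptor Bicd1 (-3.04), Tceal7 (-3.01), the integrin chain Itgb8 (-2.98) and the pseudogene Zfp125 (-2.95). The rest were the neurofilament gene Nefm (-2.94), the histone mRNA factor Casp8ap2 (-2.91) and Rgs4 (-2.90), which shortens signalling through G proteins. With the trend removed all 12 stayed called lower, between -4.96 for Uqcrfs1 and -1.23 for Bicd1, and for Chml (-2.08), Cep290 (-1.63), Tceal7 (-1.84), Itgb8 (-1.71), Zfp125 (-1.79) and Casp8ap2 (-1.86) the value also shrank by over 1.5 times.

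**Figure D2:**
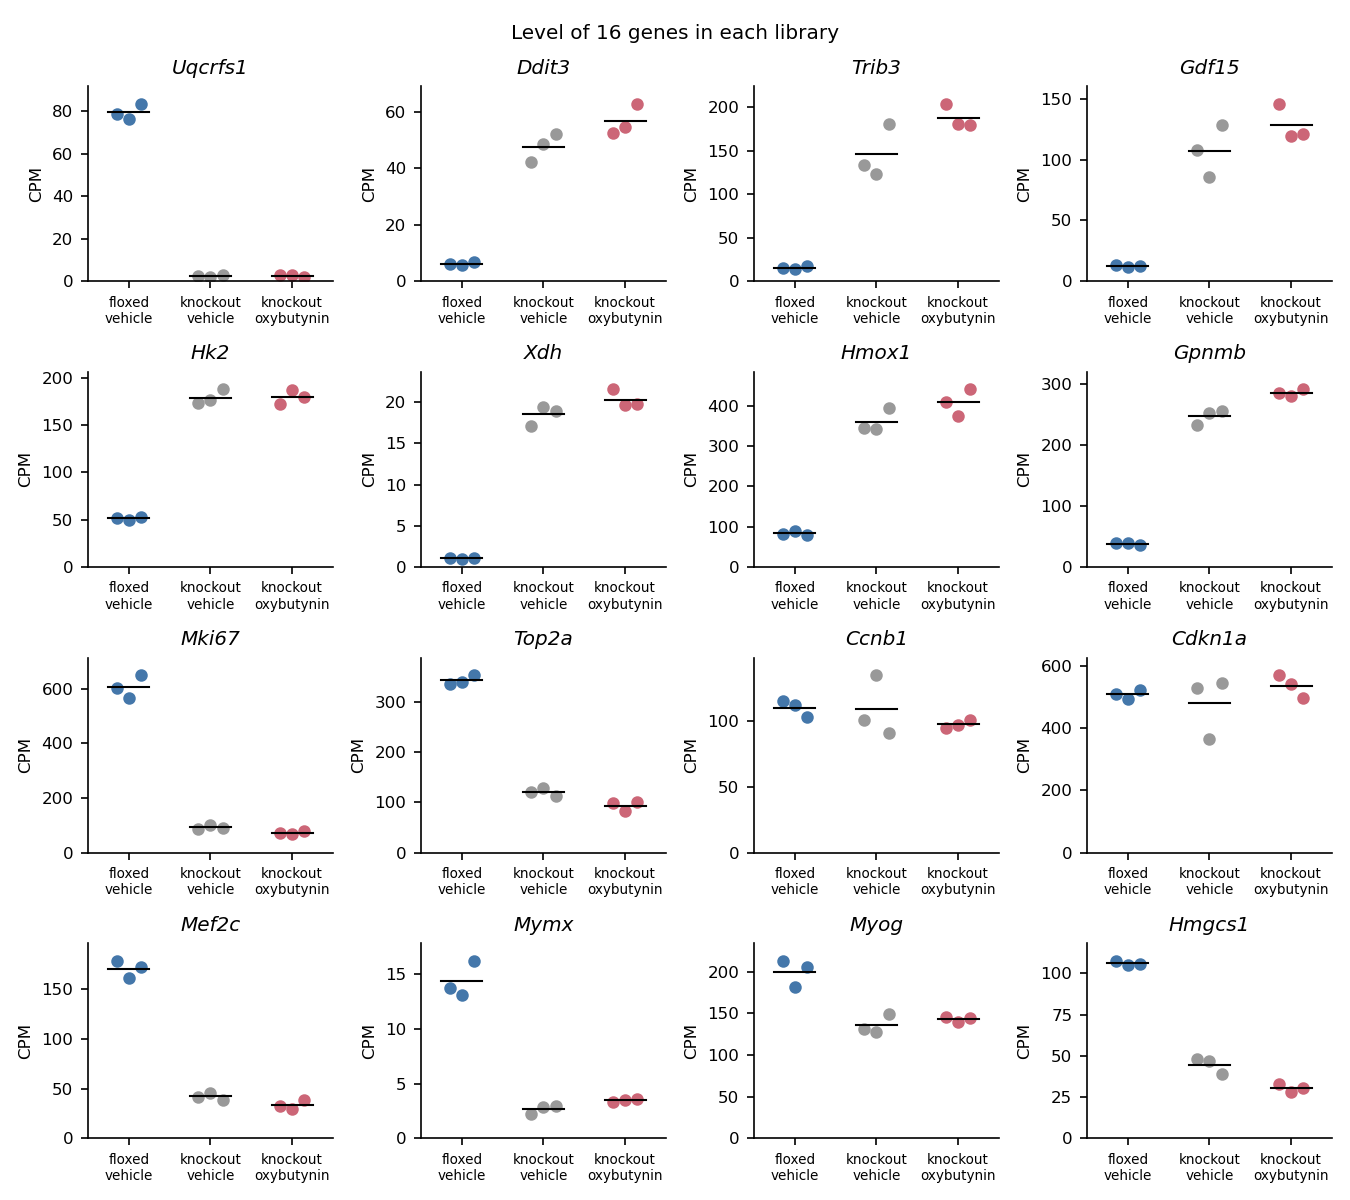
CPM of 16 genes in each of the 9 libraries, on axes that start at 0; points are libraries and bars are group means. Uqcrfs1, Mki67 and Mef2c are low and Ddit3, Trib3, Gdf15, Hk2, Xdh, Hmox1 and Gpnmb are high in both Cre groups, while Ccnb1 and Cdkn1a lie close together in floxed vehicle and knockout oxybutynin.

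The integrated stress response lowers general translation while the mRNA of Atf4 is translated more, and ATF4 then raises genes for amino acid uptake, synthesis and tRNA charging. Of the 38 genes of this list, 36 were called higher and 2 lower, against 35.1% and 36.9% of all genes tested, and the list's median was 1.65. With the trend removed the counts were 35 and 0 and the median 1.25. The list holds genes known as ATF4 targets, so the motif that ATF4 binds with its partners of the C/EBP family was looked for in their promoters. Among the transcription factors, Atf4 itself went from 378, 373 and 389 CPM to 992, 899 and 1044 CPM, a rise of 1.36 ± 0.09. Ddit3, which encodes CHOP, went from 6.18, 5.54 and 6.67 CPM to 52.4, 54.4 and 62.8 CPM (3.20 ± 0.12), and the untreated knockout libraries were at 42.3, 48.4 and 52.1 CPM. Trib3, a target that feeds back on ATF4, went from 15.02, 13.4 and 17.1 CPM to 204, 180.5 and 179 CPM. All 3 regulators were thus higher in each treated library than in any floxed one, and the groups did not overlap for 78.9% of all genes tested. Ddit3 and Trib3 are also among the largest rises given above, a set that took only genes whose groups do not overlap.

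The secreted products of the response were also higher. Gdf15, a cytokine that lowers appetite through a hindbrain receptor, went from 13.1, 11.7 and 12.8 CPM to 146, 119 and 121 CPM (3.37 ± 0.14). Fgf21, a hormone released by stressed muscle and liver, went from 17.2, 13.7 and 15.7 CPM to 55.1, 54.2 and 51.2 CPM (1.79 ± 0.13). The untreated knockout libraries overlapped the treated ones for both, at 108, 86.1 and 128 CPM for Gdf15 and 54.2, 38.5 and 57.3 CPM for Fgf21. Among the enzymes and transporters, asparagine synthetase (Asns) went from 160.1, 162 and 162 CPM to 516, 446 and 501 CPM, cystathionine gamma-lyase (Cth) from 9.3997, 11.6 and 12.05 CPM to 76.2, 68.7 and 67.1 CPM and Slc7a3 from 3.32, 3.35 and 3.47 CPM to 33.9, 32.8 and 40.8 CPM. The 2 members called lower, named after their values were seen, were the glutamine transporter Slc38a2 (-0.50) and the C/EBP factor Cebpg (-0.23), both called higher once the trend was removed (0.17 and 0.50).

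The motif TGATGNAA, searched on both strands (TTNCATCA on the other), occurred in the 250 bases before the start of 10 of the 32 list genes with a promoter in the RefSeq table (31.2%). The share was 2.38% of 10722 tested genes with a promoter and 3.45% of all 32851 promoters in the table. The 10 genes were Atf3, Chac1, Fgf21, Asns, Vldlr, Nupr1, Slc7a11, Pycr1, Pck2 and Jdp2. A match is a description of these letters only. The promoters of 4 of them, chosen after their values were seen because they differ in the motif's strand and distance, follow from RefSeq on GRCm38.p6, each written 5′ to 3′ on the gene's strand with the motif in capitals.
Asns: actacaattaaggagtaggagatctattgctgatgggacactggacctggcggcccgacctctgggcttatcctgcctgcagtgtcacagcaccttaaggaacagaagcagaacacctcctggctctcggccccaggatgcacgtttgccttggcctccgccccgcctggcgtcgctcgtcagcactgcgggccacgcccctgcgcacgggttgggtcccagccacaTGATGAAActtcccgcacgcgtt
Chac1: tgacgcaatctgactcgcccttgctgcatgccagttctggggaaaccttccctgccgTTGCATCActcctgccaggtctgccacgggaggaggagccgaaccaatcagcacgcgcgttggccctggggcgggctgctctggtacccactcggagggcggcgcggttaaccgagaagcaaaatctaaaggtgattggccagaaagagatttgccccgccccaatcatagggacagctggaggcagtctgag
Nupr1: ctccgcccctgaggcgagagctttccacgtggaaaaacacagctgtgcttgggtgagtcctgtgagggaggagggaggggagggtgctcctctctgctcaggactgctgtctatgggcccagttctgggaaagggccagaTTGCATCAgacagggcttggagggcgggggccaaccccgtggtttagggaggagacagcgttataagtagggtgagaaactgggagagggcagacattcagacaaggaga
Slc7a11: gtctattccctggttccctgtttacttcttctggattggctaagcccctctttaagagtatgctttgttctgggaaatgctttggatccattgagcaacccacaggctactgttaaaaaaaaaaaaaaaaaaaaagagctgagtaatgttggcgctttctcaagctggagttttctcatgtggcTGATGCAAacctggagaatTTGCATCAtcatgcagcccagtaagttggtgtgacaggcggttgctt
Asns lies on the minus strand and its 250 bases span chr6:7693210-7693459; its motif starts 23 bases before the transcript. Chac1, on the plus strand (chr2:119350992-119351241), encodes an enzyme that breaks down glutathione and holds the motif on the other strand, 193 bases before the start. Nupr1 (chr7:126625471-126625720, minus strand), a small stress-induced chromatin protein, holds it on the other strand 110 bases before the start. Slc7a11 (chr3:50443614-50443863, minus strand), the cystine importer, holds 2 motifs, one on each strand, the nearer 47 bases before the start. The log2 fold changes of the 4 genes were 1.60, 2.33, 2.07 and 0.97. Chac1 went from 24.01, 22.4 and 24.5 CPM in floxed vehicle to 126, 118 and 113 CPM in knockout oxybutynin, and Nupr1 from 3.83, 3.31 and 3.38 CPM to 14.7, 14.7 and 14.7 CPM. The groups did not overlap for either, as for 78.9% of all genes tested.

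Cytosolic tRNA synthetases, which load amino acids onto tRNA, were mostly higher: 14 of 20 were called higher and 2 lower, with a median of 0.35 (17, 1 and 0.37 with the trend removed). Sars, for serine, went from 137, 138 and 135 CPM to 514, 451 and 463 CPM (1.80 ± 0.10), and Wars, for tryptophan, from 93.7, 96.6 and 97.1 CPM to 312, 279.5 and 316 CPM. Gars rose by 1.18 ± 0.08 and Yars by 1.07 ± 0.09. Of 17 enzymes of serine synthesis and folate one-carbon metabolism, 11 were higher and 5 lower (median 0.66, 0.33 with the trend removed). Psph, the last enzyme of serine synthesis, went from 25.6, 24.6 and 28.1 CPM to 112, 92.5 and 85.1 CPM, and Aldh1l2, a mitochondrial folate enzyme, from 33.9, 32.9 and 35.7 CPM to 119.8, 109.9 and 116 CPM. Shmt2 rose by 1.47 ± 0.11 and Mthfd2 by 1.08 ± 0.08. Of the 22 genes of endoplasmic reticulum folding and stress, 12 were higher and 5 lower (median 0.24), and 9 and 9 with the trend removed. Herpud1, which acts in the disposal of misfolded proteins, went from 39.03, 36.9 and 37.3 CPM to 164, 144 and 148 CPM, while the chaperone Hsp90b1 went from 791, 792 and 815 CPM to 284, 227 and 324 CPM. Dnajc3 fell by 1.51 ± 0.08 and calnexin (Canx) by 1.18 ± 0.09, so these 3 chaperones moved against Herpud1.

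**Figure D3:**
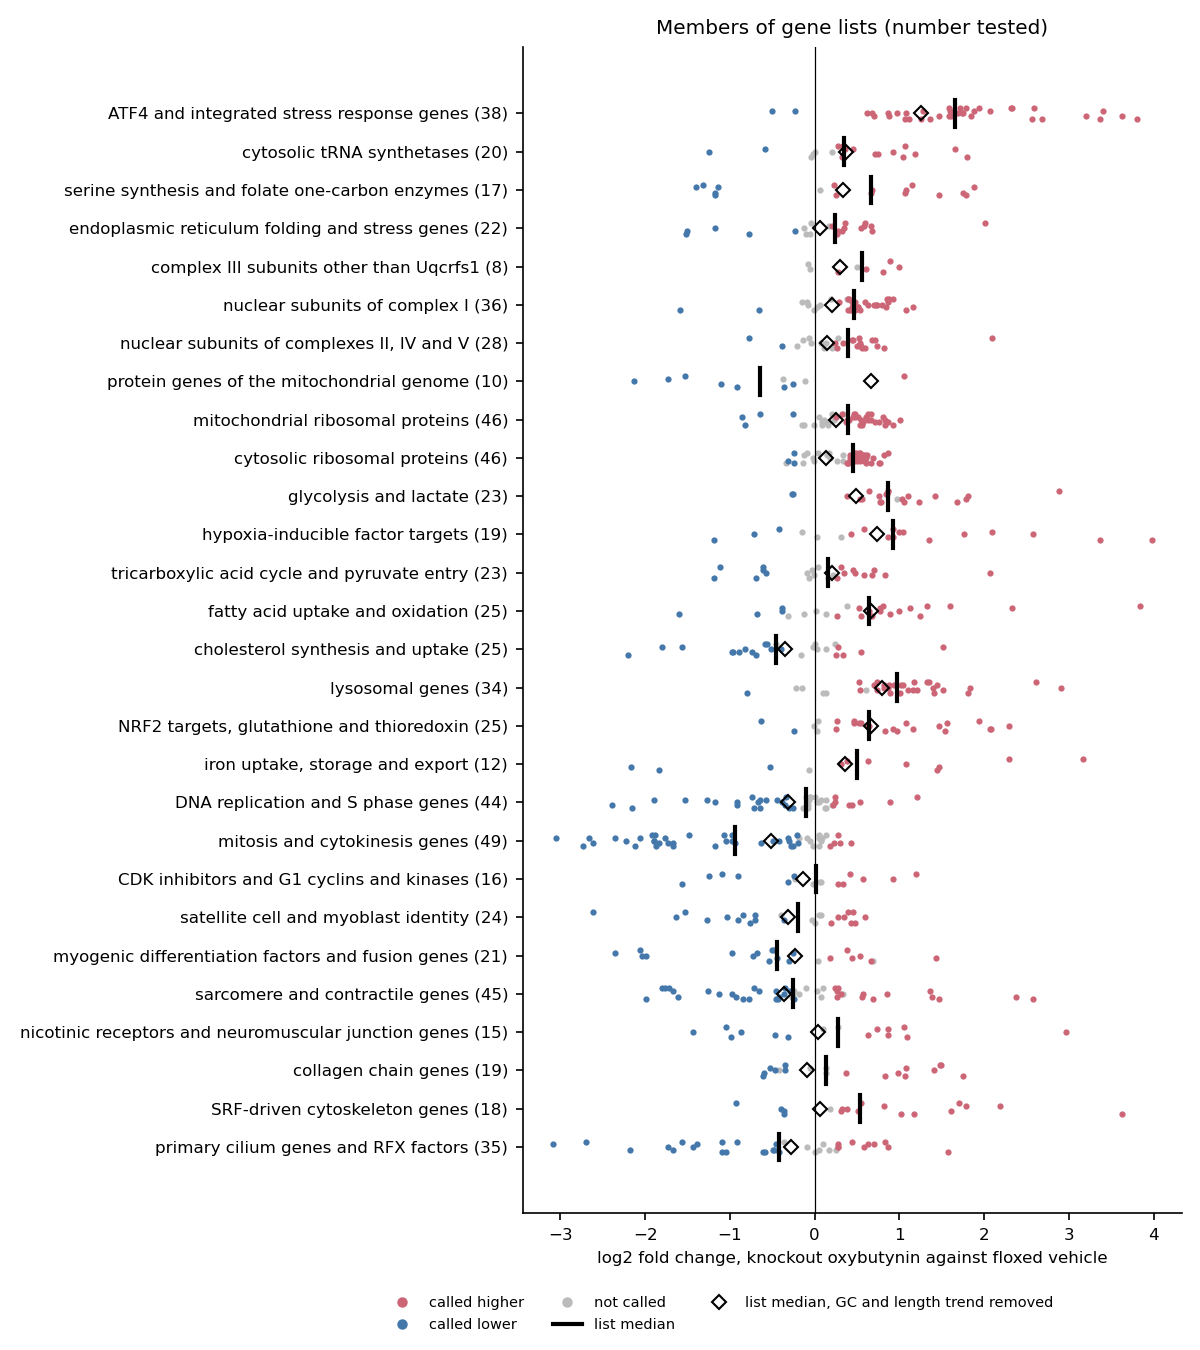
Log2 fold change of knockout oxybutynin against floxed vehicle for the members of 28 of the 54 gene lists, with the number tested in brackets. Points are genes coloured by call, bars are list medians and open diamonds are medians with the GC and length trend removed; ATF4 genes have the highest median (1.65), mitosis genes the lowest (-0.94), and the genes of the mitochondrial genome change sides from -0.64 to 0.66.

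In the respiratory chain, 5 of the 8 other nuclear subunits of complex III were called higher and 0 lower (median 0.56; 4, 0 and 0.30 with the trend removed). Uqcrc1, a core subunit, went from 120.4, 123 and 129 CPM to 261, 221 and 209 CPM and Uqcrq, which touches cytochrome b, from 67.7, 72.7 and 72.5 CPM to 144, 133 and 148 CPM. Cyc1, the cytochrome c1 subunit, rose by 0.81 ± 0.09, and Uqcr10 by 0.61 ± 0.12, and neither was called with the trend removed (0.10 and 0.15). Uqcrc2, the other core subunit, rose by 0.27 ± 0.08, and this call was lost without knockout oxybutynin replicate 3. Among the 6 assembly factors Bcs1l, the ATPase that inserts the Rieske protein into complex III, went from 14.8, 13.8 and 13.3 CPM to 27.9, 26.99 and 27.7 CPM. Uqcc1 and Uqcc2, which help make cytochrome b, rose by 0.62 ± 0.08 and 0.88 ± 0.15. Ttc19, which clears Rieske protein fragments, went from 39.1, 38.4 and 35.3 CPM to 16.5, 21.4 and 18.8 CPM, the only fall among the 6.

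Of 36 nuclear subunits of complex I, the NADH dehydrogenase, 26 were higher and 2 lower (median 0.46; 18, 1 and 0.20 with the trend removed). Ndufs7 went from 41.8, 43.2 and 39.9 CPM to 94.3, 90.5 and 94.1 CPM, and Ndufv3 rose by 1.08 ± 0.12 and Ndufa10 by 0.84 ± 0.08. For complexes II, IV and V, 17 of 28 were higher and 2 lower (median 0.39, 0.15 with the trend removed). The succinate dehydrogenase subunits Sdhb and Sdhc rose by 0.82 ± 0.09 and 0.74 ± 0.09, and Atp5j, of ATP synthase, fell by 0.77 ± 0.14.

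Protein genes of the mitochondrial genome went the other way: 7 of 10 tested were lower and 1 higher (median -0.64). Cytochrome b (mt-Cytb), the complex III subunit made in mitochondria, went from 5744, 5545 and 5738 CPM to 1779, 1756 and 2342 CPM. The complex I subunits mt-Nd4 and mt-Nd5 fell by 2.13 ± 0.17 and 1.73 ± 0.13. These transcripts are poor in GC, with a median of 37.4%, and with the trend removed 6 of the 10 were higher and 3 lower (median 0.66). With it removed mt-Cytb moved from -1.53 to -0.38, mt-Nd4 to -0.72 and mt-Nd5 to -0.44, and mt-Nd2 turned from -1.10 to 0.32. The mitochondrial genome as a whole held 3.14, 3.07 and 3.12% of counts in floxed vehicle and 1.64, 1.58 and 2.12% in knockout oxybutynin, a difference of -1.33 percentage points (exact two-sided permutation test, p = 0.1, the smallest that 3 against 3 libraries allow; 0.1 after Benjamini-Hochberg adjustment over 6 shares). Nuclear copies of these genes can share their reads. Of 46 mitochondrial ribosomal proteins, 27 were higher and 4 lower (median 0.39, 0.25 with the trend removed); Mrps10 rose by 1.01 ± 0.13 and Mrpl10 by 0.76 ± 0.09. Lonp1, the matrix protease, went from 74.6, 73.3 and 81.5 CPM to 299, 277 and 260.4 CPM, whereas the inner membrane protease Yme1l1 went from 197, 198 and 194 CPM to 54.4, 47.4 and 58.99 CPM and the chaperonin Hspd1 fell by 1.23 ± 0.10. Over the 21 chaperones, proteases and import genes 13 were higher and 5 lower (11 and 5 with the trend removed).

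Glycolysis genes were higher almost throughout. Of 23 genes 20 were called higher and 2 lower (median 0.86), with the same counts and a median of 0.49 with the trend removed. Hexokinase 2 (Hk2), which traps glucose in the cell, went from 51.4, 49.2 and 53.1 CPM to 173, 188 and 179.9 CPM, and the glucose transporter Slc2a1 from 55.2, 53.1 and 52.7 CPM to 181, 167 and 167 CPM. Lactate dehydrogenase A (Ldha) went from 345, 338 and 336 CPM to 669.7, 590 and 579.7 CPM, and the lactate exporter Slc16a3 from 2.66, 1.76 and 2.45 CPM to 20.2, 14.6 and 15.3 CPM (2.88 ± 0.21). Each treated library exceeded each floxed one for these 4 genes, and the groups did not overlap for 78.9% of all genes tested. Pdk1, the kinase that holds back pyruvate dehydrogenase, rose by 1.23 ± 0.09. Of 19 tested targets of the hypoxia-inducible factors 13 were higher and 3 lower (median 0.92, 0.73 with the trend removed). Bhlhe40 went from 4.55, 4.85 and 4.71 CPM to 28.4, 26.2 and 29.7 CPM, and Ndrg1, Plin2 and Adm rose by 2.09 ± 0.11, 1.76 ± 0.08 and 3.37 ± 0.21. Vegfa, the vascular growth factor, rose by 0.99 ± 0.08.

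The tricarboxylic acid cycle and pyruvate entry did not move one way, with 10 of 23 higher and 6 lower (median 0.16; 12, 4 and 0.20 with the trend removed). Pyruvate carboxylase (Pcx), which makes oxaloacetate from pyruvate, went from 16.1, 15.2 and 15.4 CPM to 74.6, 61.7 and 59.6 CPM, while Sucla2 and Dld fell by 1.19 ± 0.11 and 1.12 ± 0.09; Dld was not called with the trend removed (-0.16). Among 26 genes of aspartate and nucleotide synthesis 11 were higher and 10 lower (median 0.12; 8, 9 and -0.07 with the trend removed). Got1, the cytosolic enzyme that makes aspartate, went from 52.6, 56.6 and 52.95 CPM to 159.6, 159 and 171 CPM, and its mitochondrial partner Got2 rose by 0.81 ± 0.08. The purine enzymes Gmps and Adss fell by 1.57 ± 0.09 and 1.44 ± 0.11 (-0.27 and -0.64 with the trend removed). The list of purine breakdown had 6 of 9 tested genes higher and 2 lower (7 and 2 with the trend removed). One of those called higher, Aprt (1.05), is a salvage enzyme. Ampd3, which deaminates AMP, went from 19.6, 17.1 and 18.1 CPM to 141, 149 and 137 CPM, beside the rise of Xdh given above.

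Cholesterol synthesis and uptake had 13 of 25 genes lower and 5 higher (median -0.45; 14, 2 and -0.35 with the trend removed). Hmgcs1, an early enzyme of the pathway, went from 107, 105 and 106 CPM to 32.7, 28.4 and 30.4 CPM, and Idi1, which isomerises isopentenyl diphosphate, from 18.7, 20.4 and 21.4 CPM to 4.08, 4.603 and 4.54 CPM. The untreated knockout libraries lay between for both, at 48.02, 47.1 and 38.99 CPM for Hmgcs1 and 6.71, 7.32 and 5.47 CPM for Idi1. Sqle, which makes squalene epoxide, fell by 0.89 ± 0.09. Fatty acid uptake and oxidation had 16 of 25 tested genes higher and 4 lower (median 0.64, 0.67 with the trend removed). Ucp2, a carrier of the inner membrane, went from 10.2, 10.3 and 10.7 CPM to 51.2, 49.5 and 56.1 CPM and the fatty acid binding protein Fabp3 rose by 1.60 ± 0.12. Ppargc1a, a coactivator of mitochondrial biogenesis, went from 46.6, 44.7 and 48.9 CPM to 14.4, 14.6 and 17.2 CPM. In fatty acid synthesis 7 of 15 were higher and 3 lower (8 and 6 with the trend removed). Acacb, whose product malonyl-CoA restrains fatty acid import into mitochondria, went from 3.93, 4.17 and 4.85 CPM to 24.04, 28.99 and 25.1 CPM, against the fall of Elovl6 from 71.1, 71.7 and 67.98 CPM to 10.1, 8.97 and 11.2 CPM.

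Lysosomal genes were raised broadly. Of 34 tested, 28 were called higher and 1 lower (median 0.97; 31, 0 and 0.79 with the trend removed). Gpnmb, a glycoprotein of lysosomes and melanosomes, went from 38.8, 39.5 and 35.8 CPM to 285, 280.2 and 291 CPM (2.91 ± 0.08), and Hexa, which degrades gangliosides, from 14.4, 13.4 and 14.8 CPM to 90.3, 83.01 and 86.7 CPM. Gaa, the acid glucosidase, rose by 1.83 ± 0.11 and cathepsin B (Ctsb) by 1.35 ± 0.08. Among 25 genes of the NRF2, glutathione and thioredoxin systems 20 were higher and 2 lower (median 0.64, 0.67 with the trend removed). Haem oxygenase 1 (Hmox1) went from 82.2, 88.7 and 78.9 CPM to 410.1, 374 and 441 CPM and Nqo1, a quinone reductase, from 9.14, 9.32 and 9.47 CPM to 40.8, 37.8 and 38.7 CPM. Gsta4 and Blvrb rose by 1.94 ± 0.10 and 2.08 ± 0.13. Iron genes did not move one way. The transferrin receptor Tfrc, which brings iron in, went from 225, 229 and 221 CPM to 48.8, 44.7 and 56.4 CPM, and Ireb2, whose protein protects the Tfrc mRNA, from 156, 163 and 162 CPM to 45.997, 40.95 and 47.6 CPM. Ferroportin (Slc40a1), which exports iron, went from 2.71, 2.53 and 3.07 CPM to 22.1, 24.2 and 28.8 CPM. In all 8 of 12 tested were higher and 3 lower, and with the trend removed Tfrc, Ireb2 and Slc40a1 were at -1.02, -0.48 and 4.20. Of 11 tested drug-metabolising enzymes and efflux pumps 7 were higher and 2 lower (6 and 1 with the trend removed). Epoxide hydrolase Ephx1 went from 37.7, 42.4 and 39.7 CPM to 200.03, 187 and 195 CPM and Cyp2d22 rose by 3.17 ± 0.14; both were also high in the knockout libraries without the drug, at 161, 155 and 189 CPM for Ephx1 and 12.3, 13.4 and 13.8 CPM for Cyp2d22.

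Mitosis genes were lower. Of 49, 34 were called lower and 5 higher (median -0.94), and 38 and 3 with the trend removed (median -0.52). Topoisomerase 2 alpha (Top2a) went from 337, 341 and 354 CPM to 98.3, 82.7 and 101 CPM and the kinetochore gene Cenpf from 124, 116 and 134 CPM to 19.2, 19.2 and 22.6 CPM. Kif23, a motor of cytokinesis, fell by 1.88 ± 0.09. The fall did not reach every regulator of mitosis. Cyclin B1 (Ccnb1) was at 115, 112 and 103 CPM in floxed vehicle and 94.7, 96.7 and 101 CPM in knockout oxybutynin, the lowest floxed library just above the highest treated one, with a difference of -0.18 that was not called (adjusted p = 0.168, edgeR), and with the trend removed it was called higher at 0.38. Cdk1, its kinase, was at 73.4, 86.3 and 79.7 CPM and 77.2, 84.8 and 85.1 CPM, overlapping, with a difference of 0.05 (95% interval -0.13 to 0.22). In DNA replication and S phase 20 of 44 were lower and 8 higher (median -0.10; 24, 7 and -0.31 with the trend removed). The cyclin Ccne2 went from 44.03, 39.8 and 42.1 CPM to 7.75, 7.28 and 8.99 CPM, the polymerase subunit Pola1 from 55.6, 52.05 and 53.6 CPM to 11.7, 11.4 and 13.03 CPM and the sliding clamp Pcna from 84.9, 86.3 and 85.3 CPM to 50.4, 50.1 and 53.02 CPM.

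Of the 16 CDK inhibitors, G1 cyclins and kinases 6 were higher and 6 lower, and 4 and 8 with the trend removed. Cdkn1a, which encodes p21, was at 512, 494 and 523 CPM in floxed vehicle and 571, 543 and 499 CPM in knockout oxybutynin, with overlapping ranges and no call (0.08, 95% interval -0.17 to 0.32), and it was called lower with the trend removed (-0.48). Cdkn2a, which encodes p16 and p19Arf, went from 37.3, 32.6 and 32.7 CPM to 88.1, 78.01 and 69.1 CPM (1.20, and 0.52 with the trend removed). Cdk6 and Rb1 fell by 1.57 ± 0.10 and 1.25 ± 0.12 (-0.80 and -0.26 with the trend removed). Cyclin D1 (Ccnd1) rose by 0.27 ± 0.08, a call not kept with the trend removed (0.02). Of 23 p53 targets 12 were higher and 6 lower (11 and 8 with the trend removed), with Plk3 up by 1.40 ± 0.11 and Trp53inp1 down (-1.73). These 2 genes were at 0.68 and -0.47 with the trend removed. Replication-dependent histone genes had 8 of 28 higher and 2 lower, and 5 and 12 with the trend removed. In the Bcl2 family 8 of 15 tested were higher and 4 lower with a median of 0.31, which turned with the trend removed, to 4 higher and 5 lower and a median of -0.15. Bcl2, which protects from apoptosis, went from 24.6, 24.1 and 23.6 CPM to 11.6, 12.7 and 11.1 CPM, and the mitophagy receptor Bnip3 from 46.3, 48.7 and 49.8 CPM to 101, 91.2 and 106 CPM; with the trend removed the log2 fold changes were -0.57 and 1.90.

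The myogenic programme is run by Pax7 in stem cells, Myf5 and Myod1 in myoblasts, and Myog with the Mef2 factors at differentiation. Of 24 tested genes of satellite cell and myoblast identity 11 were lower and 8 higher (median -0.20; 15, 3 and -0.31 with the trend removed). Met, the receptor for hepatocyte growth factor, went from 508, 539.8 and 513 CPM to 177, 155 and 169 CPM, and Megf10, which holds satellite cells undifferentiated, from 295, 289.5 and 313 CPM to 127, 126 and 119 CPM. Eya4 and Six4, partners in muscle transcription, fell by 1.53 ± 0.11 and 1.03 ± 0.10. With the trend removed Met and Megf10 were at -1.12 and -1.09, and Eya4 and Six4 at -0.40 and -0.31. Directions for the classic factors turned on the GC trend. Myod1 went from 1122, 1103 and 1128 CPM to 1654, 1482 and 1442 CPM, a rise of 0.45 ± 0.10 that became -0.24 with the trend removed. Pax7 rose by 0.39 ± 0.07 and Myf5 fell by 0.70 ± 0.09, and neither was called with the trend removed (-0.12 and 0.18).

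Differentiation and fusion genes had 13 of 21 tested lower and 6 higher (median -0.44, -0.23 with the trend removed). Mef2c went from 179, 161 and 173 CPM to 32.6, 29.7 and 38.3 CPM and Mef2a from 338, 325 and 341 CPM to 83.5, 80.5 and 89.8 CPM. Myogenin (Myog) went from 213, 181 and 206 CPM to 145, 139 and 144 CPM. The fusion peptide myomixer (Mymx) went from 13.8, 13.1 and 16.2 CPM to 3.35, 3.501 and 3.64 CPM, and its partner myomaker (Mymk) from 97.7, 87.6 and 101 CPM to 74.6, 70.5 and 66.6 CPM. With the trend removed Mef2c and Mef2a moved from -2.35 and -1.99 to -0.98 and -0.78. Myog, Mymx and Mymk moved from -0.48, -2.04 and -0.44 to -1.01, -2.61 and -0.97. The 2 groups did not overlap for any of these 5 genes, nor for the adhesion receptor Jam2, which fell by 2.06 ± 0.10. They did not overlap for 78.9% of all genes tested. Boc, a receptor that favours differentiation, rose by 1.43 ± 0.10. Of 45 tested sarcomere and contractile genes 22 were lower and 14 higher (median -0.25; 27, 7 and -0.36 with the trend removed). Embryonic myosin (Myh3) went from 732, 616 and 753 CPM to 161, 204 and 163 CPM, cardiac actin (Actc1) from 570.01, 528 and 585 CPM to 176, 182 and 192 CPM and nebulin (Neb) from 1462, 1304 and 1528 CPM to 401, 418 and 416 CPM. Skeletal actin (Acta1) went the other way, from 729, 661 and 742 CPM to 1179.7, 1173 and 1077 CPM, though it was not called with the trend removed (0.06); the glycogen phosphorylase Pygm rose by 1.47 ± 0.08. Among 10 atrophy ligases and FOXO-linked factors 3 were higher and 4 lower (2 and 5 with the trend removed). Atrogin-1 (Fbxo32) went from 39.5, 38.2 and 43.2 CPM to 9.88, 10.8 and 10.4 CPM, while Klf15 went from 0.358, 0.129 and 0.133 CPM to 3.96, 3.58 and 3.55 CPM. Klf15 was near the detection limit in floxed vehicle and could be tested through the Cre groups, so its levels are only a description. The counts over the 10 factors include it.

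Oxybutynin's known targets, the muscarinic receptors, were scarcely detected. Chrm3 was the only one with enough counts to be tested, at 3.52, 3.31 and 3.33 CPM in floxed vehicle, 4.38, 3.43 and 2.67 CPM in knockout vehicle and 3.102, 2.75 and 2.696 CPM in knockout oxybutynin. Its difference of -0.25 was not called (95% interval -0.66 to 0.16). Chrm5 had 0 counts in all 9 libraries, Chrm2 had 1 count in 1 knockout vehicle library and 0 in the others, and Chrm1 and Chrm4 reached at most 0.122 and 0.359 CPM in a library. The nicotinic receptors, ion channels of the neuromuscular junction, were present. Chrna1 was at 1365, 1307 and 1322 CPM in floxed vehicle and 1398, 1456 and 1420.4 CPM in knockout oxybutynin and was not called (0.10, 95% interval -0.06 to 0.26), though it was called higher with the trend removed (0.36). The fetal subunit Chrng went from 268, 259 and 289 CPM to 517, 486 and 493 CPM, and Chrnd rose by 0.63 ± 0.08 (0.04 and not called with the trend removed). Musk, the kinase that gathers the receptors, went from 134, 124 and 141 CPM to 70.2, 77.5 and 71.5 CPM and its nerve-derived activator agrin (Agrn) from 112, 108 and 114 CPM to 208, 206 and 196 CPM. In all 7 of 15 tested junction genes were higher and 6 lower (6 and 5 with the trend removed). Calcium handling genes had 10 of 23 higher and 8 lower, and 7 higher and 12 lower with the trend removed. Triadin (Trdn), of the calcium release complex, fell (-2.10) and the channel subunit Cacnb1 rose (1.34); with the trend removed they were at -0.58 and 0.65.

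Secreted, matrix and signalling genes follow list by list. Collagen chains had 9 of 19 tested higher and 6 lower; Col1a1 went from 20.2, 20.1 and 23.2 CPM to 55.5, 70.1 and 51.1 CPM and Col6a1 from 10.2, 9.404 and 10.2 CPM to 25.7, 30.3 and 27.7 CPM. With the trend removed the counts were 7 and 8. Matrix proteases and their inhibitors had 13 of 19 higher and 4 lower (median 0.75, 0.53 with the trend removed), with the gelatinase Mmp2 up by 1.64 ± 0.10. Ccl7, a monocyte chemokine, went from 0.255, 0.258 and 0.222 CPM to 7.71, 9.52 and 8.54 CPM. Its counts in floxed vehicle were only 5, 6 and 5, so it was tested through the Cre groups and its levels are only a description. Over 14 tested chemokines and cytokines, Ccl7 included, 10 were higher and 2 lower (10 and 2 with the trend removed). Csf1, the macrophage growth factor, went from 1052, 1047 and 1054 CPM to 1960.1, 1926 and 1999 CPM. Interferon-stimulated genes had 9 of 19 tested higher and 2 lower (6 and 1 with the trend removed). Among SRF-driven cytoskeleton genes 13 of 18 were higher and 4 lower, and 8 and 4 with the trend removed; transgelin (Tagln) went from 11.1, 10.3 and 10.3 CPM to 56.4, 45.7 and 42.95 CPM. In the TGF-beta family, with 11 of 28 higher and 10 lower (11 and 11 with the trend removed), the ligand Tgfb1 went from 19.8, 18.1 and 17.3 CPM to 71.4, 66.6 and 71.03 CPM and its receptor Tgfbr1 from 61.8, 57.3 and 62.4 CPM to 8.98, 9.05 and 10.1 CPM. Of 15 IGF system genes 9 were higher and 5 lower (9 and 2 with the trend removed); Igf2 and the neighbouring noncoding RNA H19 rose by 0.91 ± 0.16 and 0.85 ± 0.08, and the binding protein Igfbp7 by 2.39 ± 0.12. Immediate early genes had 10 of 15 tested higher and 2 lower, but 4 and 6 with the trend removed; Nr4a1, the largest rise, was at 2.34.

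Genes of the primary cilium, a sensory projection of the cell surface, had 18 of 35 lower and 10 higher (median -0.42, -0.28 with the trend removed). Rfx3, a transcription factor of ciliary genes, went from 44.6, 39.3 and 42.1 CPM to 7.39, 5.27 and 6.69 CPM and the transport protein Ift74 from 22.5, 24.004 and 26.01 CPM to 5.26, 4.56 and 6.2001 CPM. Cytosolic ribosomal proteins had 30 of 46 higher and 3 lower (median 0.45), and 16 and 3 with the trend removed (median 0.13). Among small RNAs, 10 of 11 Cajal body RNAs (scaRNA) were higher and 0 lower, with a median of 1.01 (0.87 with the trend removed). Of 76 nucleolar RNAs (snoRNA) 21 were higher (27.6%) and 5 lower (6.58%), against 35.1% and 36.9% of all genes tested. The snoRNA median was 0.35 (0.20 with the trend removed). Against knockout vehicle the scaRNA and snoRNA medians were 0.53 and 0.41, with 0 and 1 genes called. The snoRNA share of counts was 0.0369, 0.0347 and 0.0328% in floxed vehicle and 0.0406, 0.0269 and 0.0413% in knockout vehicle. It was 0.0574, 0.0534 and 0.0562% in knockout oxybutynin. Loci annotated as sense intronic had 92 of 136 lower (median -1.25, -0.49 with the trend removed), and loci of the annotation's TEC class 630 of 907 (median -1.29, -0.47 with the trend removed). Ribosomal RNA loci held 8.17, 7.7 and 8.33% of counts in floxed vehicle and 14.0, 11.6 and 10.8% in knockout oxybutynin. The 7SK RNA (Rn7sk), which restrains transcription elongation, held 1.93, 2.08 and 2.1% and 3.98, 3.43 and 3.36%. Rn7sk rose by 0.86 ± 0.14 in CPM but was not called with the trend removed (0.18). The shares of ribosomal RNA loci and of Rn7sk were higher in every treated library than in any floxed one, with the smallest p that these libraries allow (exact two-sided permutation test, p = 0.1).

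GC content moved with these results. Over the 12976 protein-coding genes with a GC value, the log2 fold change and transcript GC had a Spearman correlation of 0.635 across genes, which share libraries and are not replicates, and exon length one of -0.317. The genes were put into 10 bins of nearly equal size by GC. From the lowest to the highest bin the median log2 fold change went from -1.31 to 0.62. In the lowest bin 47 genes were higher and 1094 lower of 1298, and in the highest 949 were higher and 55 lower of 1297. With the trend removed the medians of the bins lay between -0.08 and 0.06. Its part in the results was not tested. Of 1034 tested list genes, 367 changed their call in some way with the trend removed, and of the 233 named genes tested 131 moved by over 1.5 times on the log2 scale.

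**Figure D4:**
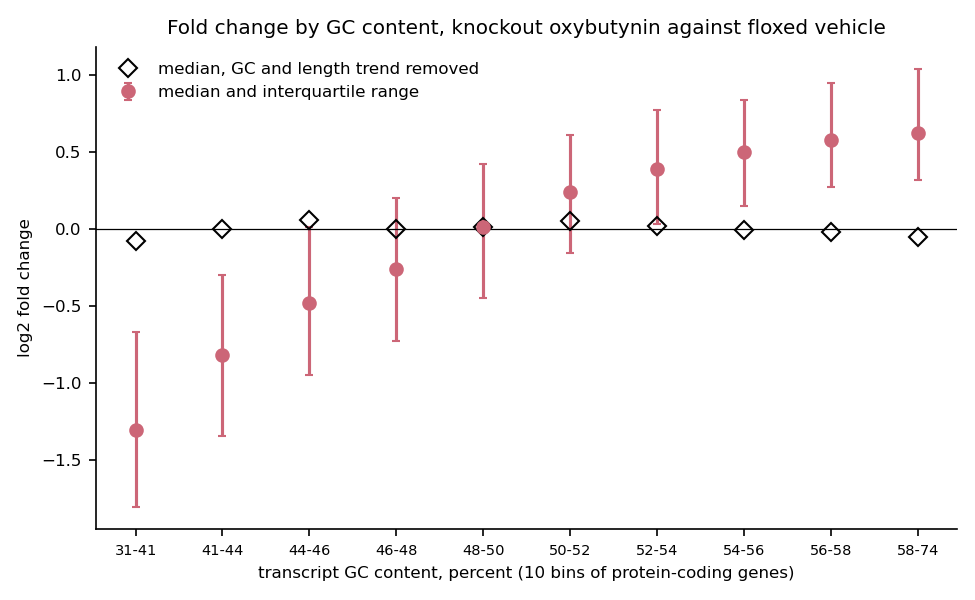
Median and interquartile range of the log2 fold change of knockout oxybutynin against floxed vehicle in 10 bins of protein-coding genes by transcript GC content in percent. The medians climb from -1.31 in the lowest bin to 0.62 in the highest; open diamonds, with the GC and length trend removed, stay between -0.08 and 0.06.

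Markers of other cell types were at low levels, apart from genes that myoblasts share with smooth muscle. Summed over the 10 fibroblast and fibro-adipogenic markers, levels ran from 15.5 to 16.4 CPM in floxed vehicle and from 35.6 to 38.6 CPM in knockout oxybutynin. Of 6 tested 3 were higher, Cd34 going from 3.63, 3.74 and 3.38 CPM to 18.7, 19.9 and 18.1 CPM, while Dcn averaged 0.122 and 0.106 CPM and Lum and Dpt were at 0 in both groups. Endothelial markers summed to 5.67 to 7.04 and 12 to 13.7 CPM, with 2 of 5 tested higher and Tie1 at 0 in both groups. Leukocyte markers summed to 9.03 to 10.01 and 17.9 to 20.4 CPM; 2 of 4 tested, Cd68 and Lyz2, were higher, and Ptprc was not tested for want of counts. Smooth muscle and pericyte markers, which include Acta2 and desmin, summed to 1201 to 1261 and 2106 to 2293 CPM. Of 6 tested 4 were higher and 1 lower (3 and 0 with the trend removed): Acta2 rose by 1.17 ± 0.10, the pericyte marker Rgs5 fell by 0.92 ± 0.10 (0.02 with the trend removed), and the defining marker Myh11 was too low to be tested. Adipocyte (1.79 to 2.28 and 3.59 to 4.25 CPM), Schwann cell (6.18 to 7.601 and 6.29 to 7.01 CPM) and epithelial markers (3.37 to 4.001 and 3.23 to 4.05 CPM) were near the detection limit. Among the members of these 3 lists Pparg, Fabp4 and Cdh1 were called higher and 1 Schwann cell marker lower. The part of these cells in the matrix and chemokine values was not tested. The 8 myoblast markers summed to 4187 to 4350 CPM in floxed vehicle and 5017 to 5260 CPM in knockout oxybutynin, with 3 higher and 3 lower (median 0.06). With the trend removed 1 was higher and 4 lower (median -0.18).

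The knockout libraries without the drug place the treated values. Between knockout oxybutynin and knockout vehicle, 2 of 15720 genes were called (0.0127%), 1 higher and 1 lower (0.00636% each), and 4084 had an unadjusted p under 0.05 in edgeR. The 2, named after their values were seen, were AW551984, at 5.92, 6.19 and 5.79 CPM in knockout vehicle and 2.94, 3.23 and 2.74 CPM in knockout oxybutynin (a difference of -1.003), and the snoRNA Gm24616, at 5.26, 3.85 and 7.33 CPM and 15.8, 11.9 and 12.7 CPM (a difference of 1.29). The median absolute log2 fold change was 0.192, and for 9809 genes (62.4%) the 95% interval of the difference lay within 1.5-fold either way. A missing call does not show that the groups were alike, since the count turned on single libraries and tools: it was 4208 without knockout vehicle replicate 3, 62 without replicate 2, and 1134 in DESeq2.

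None of the 1034 tested list genes was called between treated and untreated knockout libraries in edgeR, though 322 had an unadjusted p under 0.05, and the lists' medians lay between -0.29 and 0.27. The scaRNA and snoRNA classes, which are not among these lists, had medians of 0.53 and 0.41. Among the 12 largest rises against floxed vehicle, Cdsn differed most from knockout vehicle, by 0.49 (95% interval 0.23 to 0.75) beside 4.75 against floxed vehicle. Among the 12 largest falls Tceal7 did, by -0.89 (95% interval -1.34 to -0.44) beside -3.01. Neither was called, and the ranges of treated and untreated knockout libraries did not overlap for either. The same held for 3477 of the 15720 genes tested (22.1%). The difference was 0.25 (95% interval 0.03 to 0.46) for Ddit3, 0.26 (95% interval 0.02 to 0.51) for Gdf15, 0.01 (95% interval -0.15 to 0.17) for Hk2 and 0.13 (95% interval -0.08 to 0.35) for Xdh. It was 0.37 (95% interval 0.12 to 0.62) for Trib3 and 0.21 (95% interval 0.05 to 0.36) for Gpnmb. On the falling side it was -0.33 (95% interval -0.53 to -0.14) for Mki67, -0.34 (95% interval -0.54 to -0.13) for Mef2c and -0.55 (95% interval -0.75 to -0.35) for Hmgcs1, the last beside -1.80 against floxed vehicle. For these 3 every treated library lay below every untreated one, without a call, beside 22.1% of all genes whose ranges did not overlap. Mymx went against its direction, at 2.19, 2.89 and 2.996 CPM in knockout vehicle and 3.35, 3.501 and 3.64 CPM in knockout oxybutynin (a difference of 0.37, not called). Against floxed vehicle knockout vehicle had 9957 genes called (63.3%), 29.9% of all higher and 33.4% lower; it shares the floxed libraries with the comparison described here. The same GC order was present between treated and untreated knockout libraries, with bin medians from -0.28 to 0.23. Over protein-coding genes the Spearman correlation of this difference with transcript GC was 0.69, beside 0.635 against floxed vehicle. With the trend removed 0 genes were called between these libraries. The part of the trend in the differences given above was not tested.

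**Figure D5:**
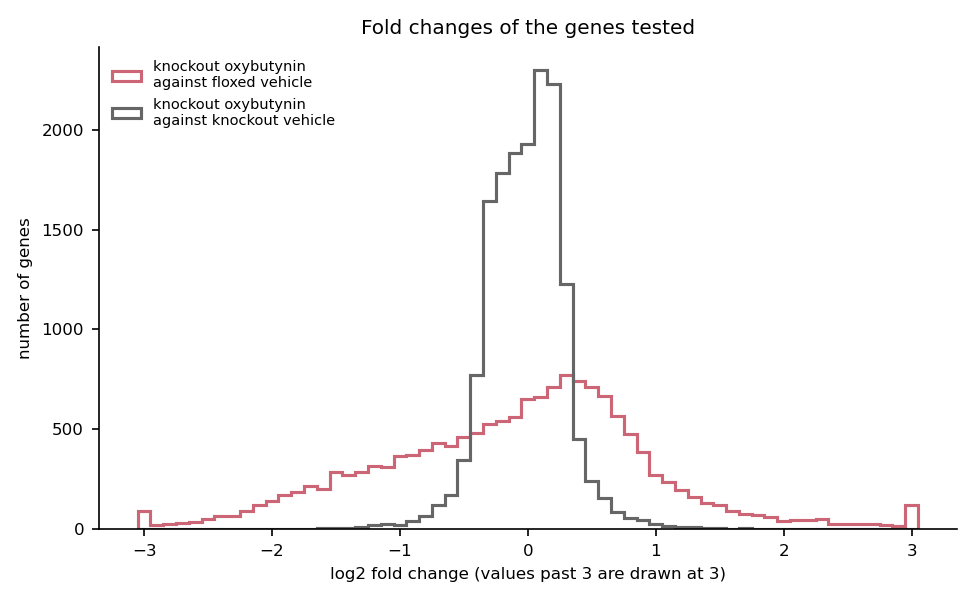
Number of genes by log2 fold change in steps of 0.1, for knockout oxybutynin against floxed vehicle and against knockout vehicle, over the 15720 genes tested. The first spreads widely (median absolute value 0.647) and the second is narrow around 0 (median absolute value 0.192); both use the same knockout oxybutynin libraries.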

How the data were processed

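The deposited table holds counts of reads for each gene, whole numbers that the authors had not normalized. The tools named in the submitters' processing notes are STAR 2.7.0e, Trim Galore 0.6.0, cutadapt, FastQC and DESeq2 1.26.0, and the builds named are mm10 and GRCm38. RNA was isolated with Trizol and made into directional NEBNext libraries, per the labels' protocols. The sources used here do not name the counting tool, its strand setting or its annotation. Whether the counts tell apart overlapping genes on opposite strands is therefore not known. GENCODE M21 held all 55536 gene IDs and gave types, GC content and exon lengths. Where a symbol has 2 gene IDs, the ID with more counts was used.

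The counts entered edgeR 4.0.16 in R 4.3.3: filterByExpr on the 3 groups, TMM scaling, glmQLFit on all 9 libraries with 1 mean per group, glmQLFTest and Benjamini-Hochberg adjustment, leaving 6 residual degrees of freedom. The GC and length trend was removed per library as a spline with 5 degrees of freedom. The fits were tested on simulated data. DESeq2 1.42.0, limma 3.58.1 (voom) and other settings were alternatives; leaving out the untreated knockout libraries in turn, and running the alternatives on the other comparisons, were added after seeing the data. Members and the 54 lists were chosen with earlier results of these data known. Named genes are Uqcrfs1, the 12 largest rises and falls among called genes that average 10 CPM or more with no overlap and no clone name, from each list up to 4 called members of lowest adjusted p, and a fixed set of well-known genes. Some genes that the rule names are not reported here. The same rule named no gene between treated and untreated knockout libraries. Shares of counts were compared by exact permutation tests. Promoter sequences are from RefSeq (GRCm38.p6).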

Additional observations from a re-analysis of the deposited data

How the results depend on the processing

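Over DESeq2, limma-voom, RLE scaling, library totals, no filter, genes averaging 1 CPM or more, removal of mitochondrial, ribosomal RNA and Rn7sk counts, protein-coding genes only, removal of the GC and length trend, a fit of only the 2 groups and an adjusted p under 0.01, the genes called between knockout oxybutynin and floxed vehicle numbered 9675 to 12158, against 11303. Leaving out each library in turn gave 10371 to 11882. A change of at least 1.5-fold left 8051, of which 3449 were higher against 5510, and 6463 against 9957 between knockout vehicle and floxed vehicle. Between knockout oxybutynin and knockout vehicle the count of 2 was 1134 in DESeq2, 7 with RLE scaling, 158 with library totals, 1099 with no filter, 1 with protein-coding genes only and 0 both with the trend removed and at an adjusted p under 0.01; limma-voom gave 3. With 1 library left out it ran from 0 to 4208, the latter without knockout vehicle replicate 3; the cause was not tested. As shares of the total without ribosomal RNA loci and Rn7sk, the difference was 0.0274 percentage points for snoRNA genes (0.0209 of all counts). For protein-coding genes outside the mitochondrial genome it was 1.29, which turned from -4.22 since the shares of ribosomal RNA and Rn7sk rose. Rn7sk is not part of that total, so its value is a ratio in percent and not a share. The ratio differed by 2.0, beside 1.55 percentage points as a share of all counts. With the trend removed 210 of 233 named genes kept direction and call; 18 were no longer called, 3 were newly called and 2 reversed, Myod1 to -0.24 and mt-Nd2 to 0.32; the cause was not tested. No paired analysis was possible because the groups share no replicate number in the labels. Genes with few counts carry the widest intervals: a member that could not be tested had too few counts in these libraries.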

Other observations

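Several list members outside the naming rule were near the detection limit in floxed vehicle and higher in both Cre groups. They were chosen after their values were seen and could be tested through the Cre groups, so their levels are given as a description, with no fold. The counts of their lists given above include them. Car9, a carbonic anhydrase known from hypoxic cells, was at 0.0511, 0.344 and 0.0445 CPM in floxed vehicle, 0.978, 1.88 and 2.51 CPM in knockout vehicle and 2.08, 2.24 and 3.15 CPM in knockout oxybutynin. Adm2, a peptide hormone, was at 0.562, 0.386 and 0.222 CPM, 3.63, 4.1 and 4.74 CPM and 5.43, 5.04 and 5.796 CPM in the same order. Bmp4, a ligand of the TGF-beta family, was at 0.0511, 0.0859 and 0.133 CPM, 2.14, 3.05 and 2.55 CPM and 1.63, 1.57 and 2.07 CPM. Calponin 1 (Cnn1), of smooth muscle filaments, was at 0.0511, 0.0429 and 0.222 CPM, 1.35, 1.13 and 1.46 CPM and 1.102, 1.65 and 1.39 CPM. The adult acetylcholine receptor subunit Chrne was at 0, 0.258 and 0.178 CPM, 0.838, 1.84 and 1.05 CPM and 1.18, 1.02 and 1.48 CPM.

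Among low members in the other direction, the Notch target Heyl was at 1.94, 2.58 and 2.18 CPM in floxed vehicle and 0.408, 0.354 and 0.315 CPM in knockout oxybutynin. The growth factor Igf1 was at 4.34, 2.88 and 3.78 CPM and 0.612, 0.905 and 1.17 CPM, and its call was lost with the trend removed.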
